A study of Mus musculus with 24 samples.

Results

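The genes described here are 10 neighbours on mouse chromosome 3: Pex2, Pkia, Zc2hc1a, Stmn2, Tpd52, Zbtb10, Zfp704, Pag1, Impa1 and Snx16, in chromosomal order. They make up 10 of the 30142 genes that the arrays named with a single symbol, and each was read by 1 array feature. They were named because their signal in the ventromedial hypothalamus (VMH) was higher in the arrays labelled as a Bmal1 deletion than in the control arrays. Their genotype differences in VMH are therefore given as a description, with no test. The results in brown adipose tissue (BAT) were also known when the genes were named, so counts of members in BAT describe this choice of genes as well.

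By its title, the study concerns the clock of astrocytes, a class of glial cells, and energy expenditure. Affymetrix arrays (24 in all, 3 in each of 8 groups) measured total RNA of the VMH, cut from brain sections of 100 µm, and of BAT, the fat that produces heat, from 20 mg pieces. In each tissue the groups were control mice on standard diet (SD), Gfap-Bmal1 cKO mice on SD, control mice on high fat diet (HFD) and Gfap-Bmal1 cKO mice on HFD, each fed for 16 weeks. Bmal1, listed as Arntl, is a core transcription factor of the circadian clock, and Gfap is a gene typical of astrocytes.

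The labels give no age, sex, strain, harvest hour, driver line or deleted part of Bmal1. The sample titles call the control arrays WT and the cKO arrays KO, and say no more about the alleles that the control mice carry. The labels do not say whether the 3 arrays of a group were separate mice. A p-value here therefore measures the spread between arrays, which may be technical. The VMH is a hypothalamic nucleus of neurons and glia, and BAT holds adipocytes, vessels and nerves. In both tissues the RNA came from mixed cells, and fewer cells of a type cannot be told apart from less RNA per cell. The arrays measured RNA, and no DNA data of these mice were used here.

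The 10 genes lie in the same stretch of chromosome 3, with other named genes between some of them, and belong to unrelated families. Pex2 serves peroxisomes, Tpd52 and Snx16 serve membrane traffic, Stmn2 acts on microtubules of neurons, Pkia, Pag1 and Impa1 act in signalling, and Zbtb10, Zfp704 and Zc2hc1a carry zinc fingers. Neighbouring mammalian genes usually have promoters of their own and are read in different tissues at different levels. The levels of different features cannot be compared on these arrays, so only differences between groups are set against each other.

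The labelled deletion did not show as a lower Arntl signal in either tissue. In VMH the Arntl log2 signals were 8.58, 8.80 and 8.49 in control SD, 8.93, 9.26 and 9.32 in cKO SD, 9.22, 8.83 and 8.80 in control HFD and 9.54, 8.99 and 9.04 in cKO HFD. The cKO arrays were higher by 0.40 ± 0.119 (log2, SE) averaged over diets (limma adjusted p 0.243), and Arntl did not pass the threshold in BAT either (0.37 ± 0.237, limma adjusted p 0.675). In BAT the Arntl signals were 5.84, 5.83 and 6.34 in control SD, 6.16, 5.80 and 7.24 in cKO SD, 6.29, 6.41 and 6.69 in control HFD and 6.87, 7.07 and 6.47 in cKO HFD. Whether the Arntl feature lies in the deleted part is not known here, so this gene does not check the labels. Below, "cKO" stands for arrays that carry this label.

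Arrays correlated at 0.992 to 0.997 within VMH and at 0.891 to 0.996 within BAT. The VMH arrays carried markers of that nucleus, with Fezf1 between 14.56 and 15.60 and Nr5a1 between 7.53 and 8.47, and a summed neuron score (the mean log2 signal of 15 markers) of 12.09 to 12.35. The BAT arrays differed in skeletal muscle RNA: the mean log2 signal of 13 muscle markers, all above the filter on low signal, ran from 5.50 to 17.43. In BAT, control SD array 1 stood apart in Ucp1, the uncoupling protein of brown fat, at 8.87 against 16.30 to 19.93 in the other 11 arrays.

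All 10 members were above the filter on low signal in all 4 groups of each tissue, and each was tested in both tissues. In VMH the 3 cKO arrays lay above the 3 control arrays for 10 of 10 members on SD, where 7.01% of the 16211 genes tested did so. The same held for 10 of 10 members on HFD, where 13.1% of genes did so, and on both diets at once, where 1.62% did so. The median member difference, cKO minus control, was 0.65 on SD, 0.69 on HFD and 0.69 averaged over diets (log2), beside medians of 0.02, 0.03 and 0.02 over all genes tested. The members' limma calls (adjusted p under 0.05) for this contrast are not given, since the genes were chosen on it. The counts and medians above restate the choice of the genes, and nothing is read from them.

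**Figure D1:**
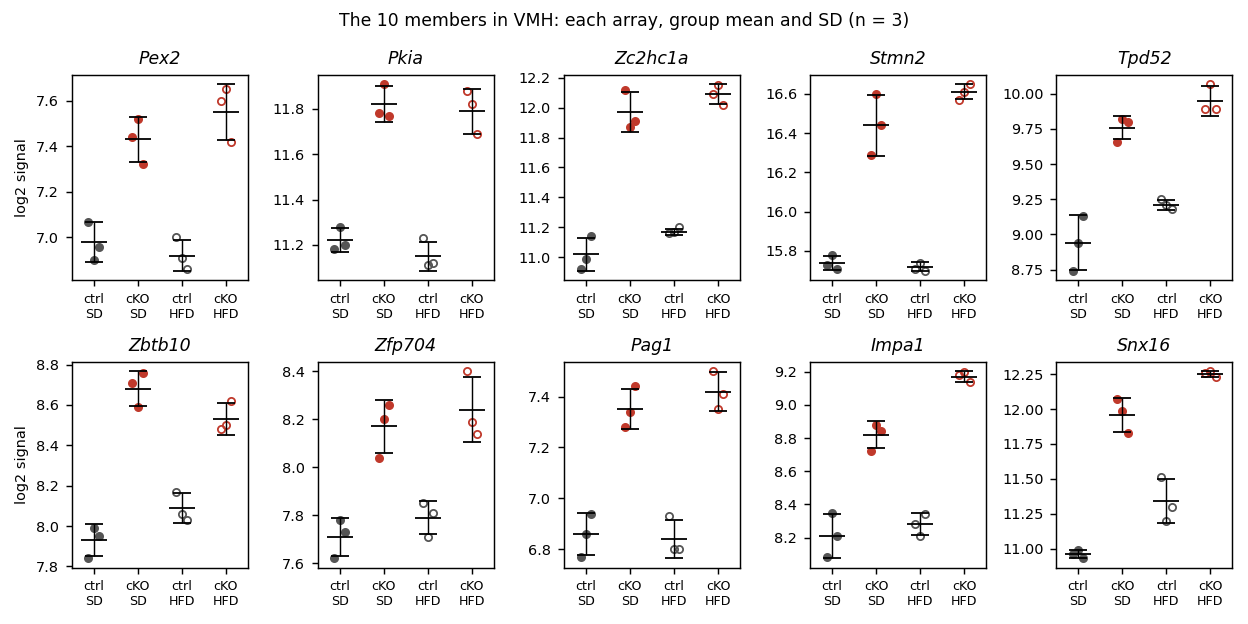
Log2 signal of the 10 members in each VMH array, with 1 panel per gene. Points are arrays (grey control, red cKO, filled SD, open HFD), and the bars give the group mean and SD (n = 3). In all 10 panels both cKO groups lie above both control groups without overlap.

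Among the members of membrane traffic and organelles, Snx16 had the largest VMH difference of the 10. Snx16 encodes a sorting nexin of endosomes. Its log2 signals were 10.96, 10.99 and 10.93 in control SD, 12.07, 11.99 and 11.83 in cKO SD, 11.51, 11.20 and 11.30 in control HFD and 12.26, 12.27 and 12.23 in cKO HFD. The cKO arrays were higher by 1.005 ± 0.0838 (SE) on SD and 0.91 ± 0.0838 on HFD, or 1.94-fold averaged over diets. The lowest cKO array, at 11.83, lay above the highest control array, at 11.51.

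Tpd52, a coiled-coil protein of vesicle traffic, read 8.74, 8.94 and 9.13 in control SD and 9.66, 9.82 and 9.80 in cKO SD. On HFD, Tpd52 read 9.25, 9.21 and 9.18 in control arrays and 9.89, 10.07 and 9.89 in cKO arrays. No cKO array overlapped a control array, and the averaged difference was 0.78 ± 0.0673 (1.72-fold). Pex2, a ubiquitin ligase of the peroxisomal membrane that recycles the import receptor, read 7.07, 6.90 and 6.96 in control SD and 7.44, 7.52 and 7.32 in cKO SD. On HFD, Pex2 read 7.0, 6.91 and 6.86 in control arrays and 7.60, 7.65 and 7.42 in cKO arrays. Its averaged difference of 0.54 ± 0.0572 (1.45-fold) was among the smaller ones, again with no overlap.

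Stmn2, a microtubule-destabilising protein of growing and regenerating axons, had the narrowest range over the 6 control arrays. It read 15.73, 15.78 and 15.71 in control SD and 15.71, 15.74 and 15.70 in control HFD. In cKO arrays Stmn2 read 16.29, 16.60 and 16.44 on SD and 16.57, 16.61 and 16.65 on HFD. The 6 control arrays lay within 15.70 to 15.78, and the averaged difference was 0.80 ± 0.0516 (1.74-fold). The summed score of 15 neuron markers ranged from 12.13 to 12.27 in the control arrays and from 12.09 to 12.35 in the cKO arrays.

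The signalling members showed smaller to intermediate VMH differences. Pkia encodes a small peptide inhibitor of protein kinase A. Pkia read 11.18, 11.28 and 11.20 in control SD, 11.78, 11.91 and 11.77 in cKO SD, 11.23, 11.11 and 11.12 in control HFD and 11.88, 11.82 and 11.69 in cKO HFD. Its differences on the diets were close to each other, 0.60 and 0.64 (both ± 0.0695). Pag1, a membrane adaptor that recruits the kinase Csk and thereby restrains Src family kinases, read 6.77, 6.86 and 6.94 in control SD and 7.28, 7.34 and 7.44 in cKO SD. On HFD, Pag1 read 6.93, 6.80 and 6.80 in control arrays and 7.50, 7.35 and 7.41 in cKO arrays, an averaged difference of 0.53 ± 0.0502.

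Impa1, the lithium-sensitive inositol monophosphatase that recycles inositol, read 8.08, 8.35 and 8.21 in control SD and 8.72, 8.88 and 8.84 in cKO SD. On HFD, Impa1 read 8.28, 8.21 and 8.34 in control arrays and 9.18, 9.20 and 9.14 in cKO arrays. The cKO HFD arrays were the highest 3 of the 12, and the genotype difference was 0.60 ± 0.0758 on SD and 0.90 ± 0.0758 on HFD.

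The zinc finger members differed most in size among themselves. Zc2hc1a had the second largest averaged VMH difference, 0.93 ± 0.056 (1.90-fold). Its signals were 10.92, 10.99 and 11.14 in control SD, 12.12, 11.87 and 11.91 in cKO SD, 11.16, 11.17 and 11.20 in control HFD and 12.09, 12.15 and 12.02 in cKO HFD. Zfp704, a zinc finger protein, had the smallest, 0.46 ± 0.0599 (1.37-fold). Zfp704 read 7.62, 7.78 and 7.73 in control SD, 8.04, 8.20 and 8.26 in cKO SD, 7.85, 7.71 and 7.81 in control HFD and 8.40, 8.19 and 8.14 in cKO HFD. The lowest cKO arrays, at 8.04 and 8.14, were still above the highest control array, at 7.85.

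Zbtb10, a zinc finger transcription factor of the BTB class, read 7.84, 7.99 and 7.95 in control SD and 8.71, 8.59 and 8.76 in cKO SD. On HFD, Zbtb10 read 8.17, 8.06 and 8.03 in control arrays and 8.48, 8.50 and 8.62 in cKO arrays. Its genotype difference was 0.76 ± 0.0715 on SD and 0.45 ± 0.0715 on HFD.

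In falling order of the averaged VMH difference the members were Snx16, Zc2hc1a, Stmn2, Tpd52, Impa1, Pkia, Zbtb10, Pex2, Pag1 and Zfp704. The widest steps in this order lay between Zc2hc1a and Stmn2 and between Impa1 and Pkia, but each member's 95% interval overlapped that of the next in the order. Snx16, at one end of the chromosomal run, had the largest difference, and Pex2, at the other end, had the third smallest.

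The mean log2 signal over the 10 members summarised each VMH array. It was 9.49 to 9.59 in control SD, 9.61 to 9.71 in control HFD, 10.21 to 10.27 in cKO SD and 10.32 to 10.38 in cKO HFD. The arrays of a group differed little (pooled SD 0.0444) beside the gap between genotypes. Of 12 astrocyte markers, all above the filter, 9 had a positive averaged difference (median 0.11), as did 60% of the named genes tested off chromosome 3. Of the 12, 8 had an unadjusted p under 0.05 and 1 passed the limma threshold as higher, as did 0.555% of all genes. The astrocyte score was 10.01 to 10.27 in cKO arrays and 9.67 to 10.20 in control arrays. Of 11 oligodendrocyte markers tested, 2 were positive (median -0.55), 5 had an unadjusted p under 0.05 and 0 passed, and the score was 9.26 to 10.40 in cKO arrays and 9.73 to 11.24 in control arrays. The part of either cell type in the members' values was not tested. For VMH genotype differences the share of all genes at an unadjusted p under 0.05 is not given here. Such counts, here and below, are therefore not set against a background. Array cKO HFD 2 had a pituitary and choroid plexus score of 10.66, against 7.17 to 7.99 in the other 11. The median member difference on HFD stayed between 0.65 and 0.73 when any 1 array was left out. Among all other genes tested in VMH, the 5 whose profile over the 12 arrays was most like this mean were Tiam2 (Pearson r 0.979), Spon2 (0.973), Plat (0.970), Gm10561 (0.965) and Zfand1 (0.964). These correlations share arrays and carry the genotype difference on which the members were chosen, and Zfand1 lies between Impa1 and Snx16.

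The named genes from Pex2 to Snx16 number 21 in the gene table of assembly GRCm38.p6, which was used for names and order. The 11 that are not members are Il7, Hey1, Mrps28, Fabp5, Pmp2, Fabp9, Fabp4, Fabp12, Slc10a5, Zfand1 and Chmp4c. In VMH 3 of these 11 passed the filter on low signal, and they too are described without a test, since they lie in the run chosen on this contrast. Hey1, a transcriptional repressor downstream of Notch, differed by 0.80 ± 0.17 averaged over diets, Fabp5, a fatty acid binding protein, by 0.72 ± 0.0693, and Zfand1 by 0.66 ± 0.0534. For all 3, the cKO arrays lay above the control arrays on both diets. The other 8 were under the filter in VMH and were not tested.

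Averaged over diets, the VMH differences were small in the nearest tested genes outside this run. Before Pex2 only Zfhx4 was tested, so that edge rests on this gene alone. Zfhx4, the nearest measured gene before Pex2, read 8.39, 8.45 and 8.38 in control SD, 8.52, 8.46 and 8.34 in cKO SD, 8.41, 8.07 and 8.25 in control HFD and 8.19, 8.29 and 8.31 in cKO HFD. Its averaged difference was 0.03 ± 0.0602. After Snx16, Ralyl differed by -0.04 ± 0.0452, Lrrcc1 by -0.07 ± 0.0437 and E2f5 by 0.10 ± 0.0505. Of the 8 flanking genes tested, none passed the limma threshold in VMH on either diet or averaged (limma adjusted p 0.469 to 0.89 for the averaged differences). An unadjusted p under 0.05 was found for 2 of the 8 on SD, 1 on HFD and 0 averaged. Those on SD were E2f5 (0.24) and Rbis (0.23), both after Snx16. Their cKO arrays lay wholly above the control arrays on SD, as for 7.01% of all genes. On HFD it was Lrrcc1, at -0.23. The interval was named with these values known, so its edges are a description.

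Away from the run, 5 of 561 genes tested on the rest of chromosome 3 (0.891%) and 74 of 10586 on the other chromosomes (0.699%) passed the limma threshold for the averaged VMH difference. The median averaged difference was 0.02 over the rest of chromosome 3 and 0.02 over the other chromosomes.

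**Figure D2:**
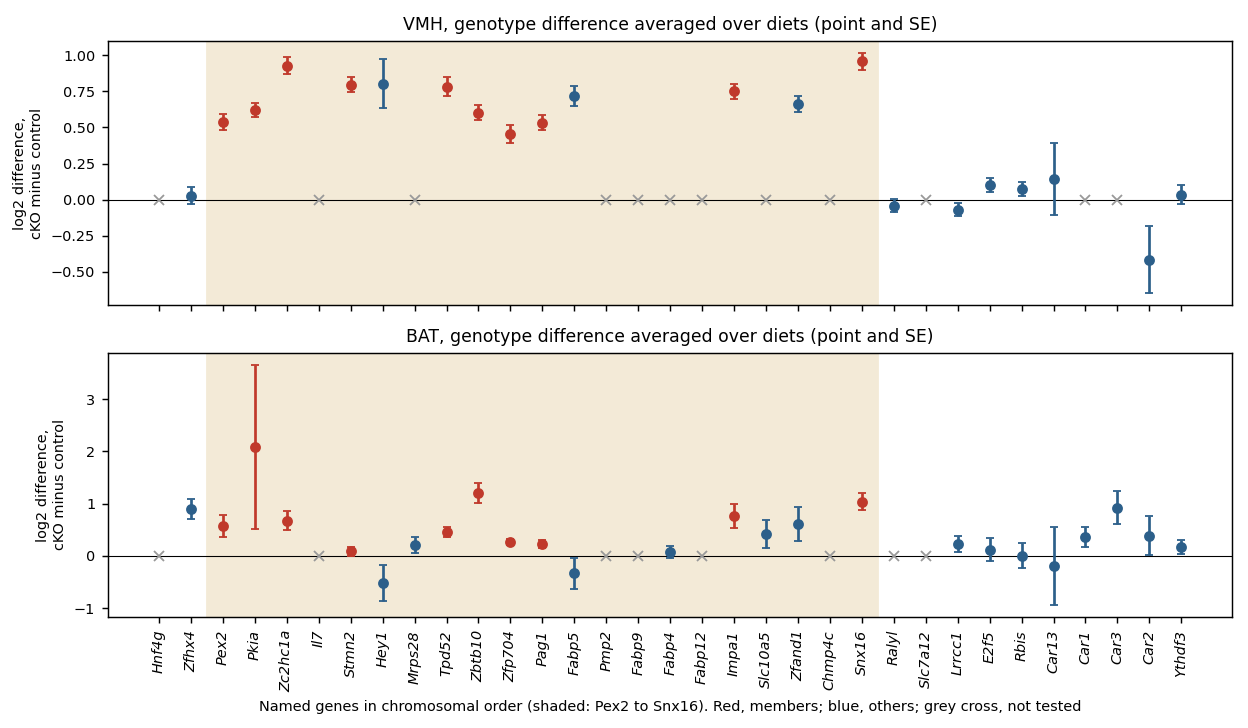
Genotype difference averaged over diets (cKO minus control, log2, point and SE) for named genes in chromosomal order, in VMH above and BAT below, with Pex2 to Snx16 shaded. Red points are members, blue points other genes, and grey crosses genes under the filter. In VMH the 13 tested genes of the shaded run lie between 0.46 and 0.96 and the flanking genes between -0.42 and 0.14. In BAT Pkia has the widest error, and Zfhx4, outside the run, is at 0.89.

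BAT gave the members' genotype difference in a second tissue. The median member difference was 0.58 on SD, 0.67 on HFD and 0.63 averaged over diets, beside -0.02 over all genes tested in each case. The averaged difference was positive for 10 of 10 members, where 45.9% of the 17124 genes tested were positive. No member passed the limma threshold on either diet or averaged, and neither did any other gene (0% called). At an unadjusted p under 0.05 the averaged comparison held 8 of the 10 members, where 8.73% of all genes passed and 2.95% passed with a positive difference. On SD it was 6 members (3.56% of all genes), and on HFD 7 members (8.26% of all genes).

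The cKO arrays of BAT lay wholly above the control arrays for 5 members on SD (3.53% of all genes), namely Stmn2, Tpd52, Zbtb10, Zfp704 and Snx16. On HFD it was 8 members (7.33% of all genes), all but Pkia and Stmn2. Tpd52, Zbtb10, Zfp704 and Snx16 did so on both diets, as did 0.362% of all genes. The spread in BAT was wider than in VMH: the median SE of the members' averaged difference was 0.173, against 0.0548 in VMH. Markers of endothelium and vessels, 10 of 10 above the filter, had a median genotype difference of -0.80 on HFD, with 9.36 to 9.41 as their score in cKO arrays and 9.88 to 10.51 in control arrays. On SD the median was -0.16 and the scores overlapped (8.81 to 9.29 in cKO, 8.89 to 9.59 in control). Averaged over diets 5 of the 10 had an unadjusted p under 0.05, 0 passed the limma threshold, and their part in the members' values was not tested. A p that misses the threshold at the members' spread does not show equal levels, and the 95% intervals are given below.

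**Figure D3:**
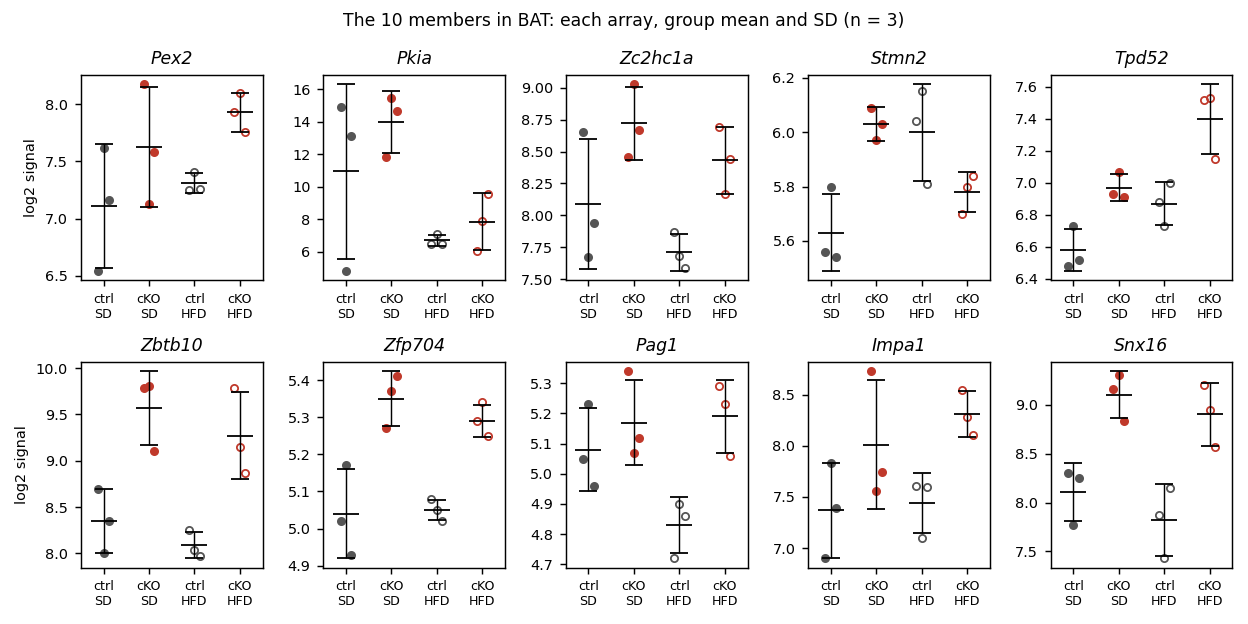
Log2 signal of the 10 members in each BAT array, with 1 panel per gene. Points are arrays (grey control, red cKO, filled SD, open HFD), and the bars give the group mean and SD (n = 3). Tpd52, Zbtb10, Zfp704 and Snx16 show no overlap between genotypes on either diet, while Pkia ranges from 4.81 to 15.44.

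Snx16 and Zbtb10 had the lowest adjusted p-values of the members in BAT. Snx16 read 8.30, 7.77 and 8.25 in control SD, 9.16, 9.30 and 8.83 in cKO SD, 7.87, 7.43 and 8.15 in control HFD and 9.20, 8.94 and 8.57 in cKO HFD. The lowest cKO array, at 8.57, was above the highest control array, at 8.30. Averaged over diets Snx16 was higher by 1.04 (95% interval 0.66 to 1.41, 2.05-fold), with a limma adjusted p of 0.396. Its VMH value was 0.96.

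Zbtb10 in BAT read 8.69, 8.0 and 8.35 in control SD, 9.79, 9.81 and 9.11 in cKO SD, 8.25, 8.04 and 7.97 in control HFD and 9.79, 9.15 and 8.87 in cKO HFD. All 6 cKO arrays were above all 6 control arrays. The averaged difference was 1.20 (95% interval 0.77 to 1.64, 2.30-fold), with a limma adjusted p of 0.396, and the SD value became 0.76 when arrays were weighted by quality. In VMH the Zbtb10 difference was 0.60, and levels or differences were not tested across tissues.

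The other members of traffic and organelles were higher on average in the BAT cKO arrays, with different spreads. Tpd52 read 6.48, 6.73 and 6.52 in control SD, 6.93, 7.07 and 6.91 in cKO SD, 6.88, 6.73 and 7.0 in control HFD and 7.52, 7.53 and 7.15 in cKO HFD. Its averaged difference was 0.46 (95% interval 0.26 to 0.66, limma adjusted p 0.547), and the genotypes did not overlap within a diet. Pex2 read 6.54, 7.62 and 7.16 in control SD, 8.18, 7.13 and 7.58 in cKO SD, 7.25, 7.41 and 7.26 in control HFD and 7.93, 8.10 and 7.76 in cKO HFD. On SD the Pex2 groups overlapped, and its SD difference of 0.53 fell to 0.25 without control SD array 1 and to 0.25 without cKO SD array 1. On HFD the Pex2 groups did not overlap (difference 0.62, limma adjusted p 0.632).

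Stmn2 in BAT had genotype differences of opposite sign on the diets. It read 5.56, 5.80 and 5.54 in control SD, 6.09, 5.97 and 6.03 in cKO SD, 6.04, 6.15 and 5.81 in control HFD and 5.70, 5.80 and 5.84 in cKO HFD. The cKO arrays were higher by 0.39 on SD (limma adjusted p 0.982), without overlap, and differed by -0.22 on HFD (limma adjusted p 0.65), with overlap. The interaction of genotype and diet was -0.62 ± 0.157 (unadjusted p 0.00303, limma adjusted p 1). Of the 15 neuron markers, 12 were under the filter in BAT and Map2, Stx1a and Vamp2 were above it, and the neuron score was 5.32 to 5.50 over the 12 arrays.

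The genotypes overlapped on SD and not on HFD for Impa1 and Pag1, of the signalling members. Impa1 read 6.90, 7.83 and 7.39 in control SD, 8.73, 7.56 and 7.74 in cKO SD, 7.61, 7.10 and 7.60 in control HFD and 8.55, 8.28 and 8.11 in cKO HFD. On HFD the Impa1 difference was 0.87 (95% interval 0.14 to 1.61, limma adjusted p 0.566). The SD difference of Impa1, 0.64, was 0.40 without control SD array 1 and 0.28 without cKO SD array 1. Pag1 read 5.05, 5.23 and 4.96 in control SD, 5.34, 5.07 and 5.12 in cKO SD, 4.72, 4.90 and 4.86 in control HFD and 5.29, 5.23 and 5.06 in cKO HFD. Pag1 differed by 0.09 on SD and by 0.37 on HFD (limma adjusted p 0.502), and its interaction was 0.28 ± 0.159 (limma adjusted p 1).

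Zc2hc1a in BAT read 8.65, 7.67 and 7.94 in control SD, 8.46, 9.03 and 8.67 in cKO SD, 7.87, 7.68 and 7.59 in control HFD and 8.69, 8.17 and 8.44 in cKO HFD. Only control SD array 1, at 8.65, reached into the cKO range of its diet. The averaged difference was 0.68 (95% interval 0.28 to 1.07, limma adjusted p 0.547). Zfp704 read 5.02, 5.17 and 4.93 in control SD, 5.27, 5.37 and 5.41 in cKO SD, 5.08, 5.05 and 5.02 in control HFD and 5.29, 5.34 and 5.25 in cKO HFD. All 6 cKO arrays of Zfp704 lay above all 6 control arrays, although the averaged difference was small, 0.27 (95% interval 0.14 to 0.41, limma adjusted p 0.547).

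Pkia varied more than any other member in BAT. It read 14.91, 4.81 and 13.10 in control SD, 11.81, 15.44 and 14.66 in cKO SD, 6.45, 7.11 and 6.50 in control HFD and 6.07, 7.86 and 9.58 in cKO HFD. Pkia is abundant in skeletal muscle, and the muscle score of the same arrays was 17.43, 5.50 and 16.49, then 14.70, 17.28 and 16.63, then 6.89, 5.56 and 9.67, and then 5.54, 10.54 and 13.07. The 5 arrays with a muscle score of 14.70 or more were the 5 arrays with Pkia at 11.81 or more. The averaged Pkia difference was 2.09 ± 1.57 (limma adjusted p 0.713), became 0.25 with the muscle score as a covariate, and was 0.56 without control SD array 2. On SD alone, Pkia differed by 3.03, and by -0.04 without that array.

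All 13 muscle markers were higher on average in the BAT cKO arrays (median 2.68 averaged over diets, with 0 passing the limma threshold and 0 at an unadjusted p under 0.05). The muscle score of the control arrays (5.50 to 17.43) overlapped that of the cKO arrays (5.54 to 17.28). With the muscle score as a covariate the averaged difference was 0.98 for Snx16, 1.20 for Zbtb10 and 0.25 for Pkia. Without the covariate the values were 1.04, 1.20 and 2.09. The median member difference was 0.55 with the covariate and 0.63 without it. The mean of the other 9 members, left after Pkia was set aside on these values and so given without a test, was 6.72 to 6.87 in the 6 control arrays and 7.23 to 7.55 in the 6 cKO arrays. Among control arrays it was 6.80 at the highest muscle score and 6.87 at the lowest. Beyond the covariate, the part of muscle RNA in the members' values was not tested.

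**Figure D4:**
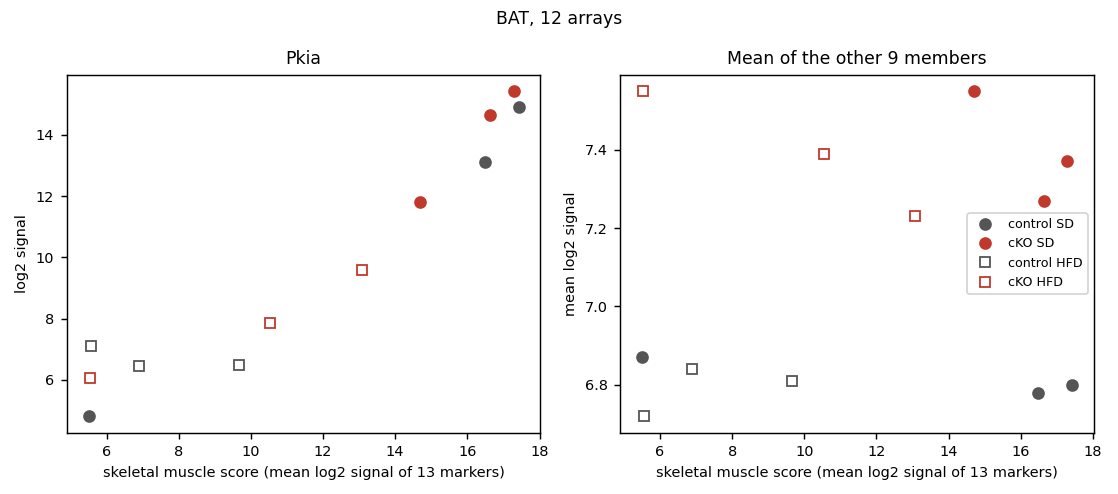
The 12 BAT arrays by skeletal muscle score (mean log2 signal of 13 markers, horizontal axis) against the log2 signal of Pkia (left) and the mean log2 signal of the other 9 members (right). Circles are SD and squares HFD arrays, grey control and red cKO. Pkia is at 11.81 or more in the 5 arrays with a score of 14.70 or more. The mean of the other 9 members, taken after Pkia was set aside on its values, separates by genotype (control 6.72 to 6.87, cKO 7.23 to 7.55). Some of these members overlap between genotypes when read singly.

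The array labelled control SD 1 had the lowest brown adipocyte score, 10.85 against 12.03 to 15.08 in the other arrays, and without it the median member difference on SD was 0.38 in place of 0.58. The part of this array's composition in the result was not tested beyond leaving it out.

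Of the 9 flanking genes tested in BAT, 2, Zfhx4 and Car3, had an unadjusted p under 0.05 for the averaged difference. Zfhx4, a large zinc finger and homeobox gene before Pex2, read 8.25, 9.01 and 8.98 in control SD, 9.67, 9.18 and 9.58 in cKO SD, 8.19, 8.40 and 7.83 in control HFD and 9.68, 9.06 and 8.86 in cKO HFD. The Zfhx4 genotypes did not overlap within a diet, and its averaged difference was 0.89 ± 0.193 (limma adjusted p 0.547). Car3, a carbonic anhydrase after Snx16, was at or near the ceiling in most arrays. On HFD it read 17.56, 17.12 and 19.30 in control arrays and 19.80 in each cKO array, without overlap, and its averaged difference was 0.93 ± 0.307 (limma adjusted p 0.547). Inside the run, Zfand1 differed by 0.61 ± 0.323, Slc10a5 by 0.41 ± 0.266 and Mrps28 by 0.21 ± 0.152, while Fabp5 differed by -0.33 ± 0.3 and Hey1 by -0.53 ± 0.343. Fabp4, the adipocyte fatty acid binding protein, was at or near the ceiling of the scale (19.93), so its difference of 0.08 is not read. Of the 16 genes tested from Pex2 to Snx16 in BAT, 14 had a positive averaged difference, where 45.9% of all genes did. The 14 include Fabp4 and the 10 members, which were named with the BAT results known. Of the 6 that are not members, 4 were positive, Fabp4 among them. At an unadjusted p under 0.05 the averaged comparison held 0 of the 6 that are not members.

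The genes of BAT whose profile over the 12 arrays was most like the member mean were Gm14049 (Pearson r 0.922), Zfx (0.921), Dync2h1 (0.907), Spata1 (0.907) and Efhd1 (0.904). None of them was among the 5 of VMH. The BAT member mean holds Pkia and ran from 6.66 to 8.17, with a pooled SD within groups of 0.257.

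For diet, no member passed the limma threshold in VMH. The median member difference, HFD minus SD, was 0.07 in control mice and 0.12 in cKO mice, beside 0.02 and 0.03 over all genes. In control mice 0% of all genes tested passed for HFD minus SD (1377 of 16211 had an unadjusted p under 0.05, 3 members among them). In cKO mice 0.00617% passed, and 3 members were at an unadjusted p under 0.05, as were 9.56% of all genes. Snx16 was higher on HFD in both genotypes, by 0.38 ± 0.0838 in control arrays (limma adjusted p 0.346) and 0.29 ± 0.0838 in cKO arrays (limma adjusted p 0.31). In neither genotype did the Snx16 diets overlap. Tpd52 differed by 0.28 in control arrays and 0.19 in cKO arrays, also without overlap between diets.

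Between diets, HFD lay wholly above SD in VMH for 4 members in control mice (Zc2hc1a, Tpd52, Zbtb10 and Snx16, 8.69% of all genes) and for 3 in cKO mice (Tpd52, Impa1 and Snx16, 11.9% of all genes). Impa1 differed by 0.36 ± 0.0758 in cKO arrays (limma adjusted p 0.196) and by 0.07 ± 0.0758 in control arrays. Its interaction, the genotype difference on HFD minus that on SD, was 0.29 ± 0.107 (unadjusted p 0.0206, limma adjusted p 0.856). Zbtb10 went the other way, with an interaction of -0.31 ± 0.101 (unadjusted p 0.0115, limma adjusted p 0.856). No gene passed the threshold for the VMH interaction (0%), and 5.62% of genes and 2 members had an unadjusted p under 0.05.

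In BAT the diet differences of the members were mixed in sign. HFD minus SD was positive for 5 of 10 members in control mice and for 4 of 10 in cKO mice, and no member passed the limma threshold, where 0.771% and 0% of all genes did (23% and 22.9% at an unadjusted p under 0.05, and 3 members in each genotype). Tpd52 was higher on HFD in both genotypes, by 0.29 in control arrays (limma adjusted p 0.209) and 0.43 in cKO arrays (limma adjusted p 0.12), with no overlap between diets, although the nearest control arrays both read 6.73 at this rounding. Stmn2 differed by 0.37 in control arrays (limma adjusted p 0.117) and by -0.25 in cKO arrays (limma adjusted p 0.217), without overlap either time. HFD lay wholly above SD for 2 members in control mice (14.3% of all genes) and 1 in cKO mice (15.5%), and wholly below for 1 (10.8%) and 2 (13.5%). No member and no other gene passed for the BAT interaction (0%), with 1 member, Stmn2, at an unadjusted p under 0.05, as were 3.79% of all genes.

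Pkia had the widest BAT diet differences, -4.25 ± 2.22 in control arrays (limma adjusted p 0.278) and -6.13 ± 2.22 in cKO arrays (limma adjusted p 0.161). The 13 muscle markers had median diet differences of -6.09 and -6.86 on the same arrays. Without control SD array 2, whose muscle score was 5.50, the Pkia diet difference in control mice was -7.32 (limma adjusted p 0.0139). Stmn2 then also passed, at 0.45 (limma adjusted p 0.0348). The share of all genes that passed without this array is not given here, so nothing is read from these passes.

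Relatives of the members elsewhere in the genome were read from a list of 91 genes: peroxisome biogenesis, protein kinase A subunits and inhibitors, stathmins, the Tpd52 family, inositol phosphate recycling, Src family kinases with their regulators, sorting nexins, and zinc finger relatives. In VMH 73 were tested, and 0 passed the limma threshold for genotype on either diet or averaged (3, 7 and 9 at an unadjusted p under 0.05). Their median averaged difference was 0.03, with a range from -0.47 for Pex5l to 0.32 for Ezr. The members were chosen on this contrast, so their median of 0.69 restates that choice. In BAT 72 relatives were tested, and 0 passed for genotype (2, 6 and 4 at an unadjusted p under 0.05). The median averaged difference of these relatives was -0.07.

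For the families of Stmn2, Tpd52, Snx16, Pex2 and Pag1, the VMH relatives of lowest p are given by their averaged difference. Stmn1 and Stmn3, stathmins like Stmn2, differed by 0.16 ± 0.0596 (limma adjusted p 0.362) and 0.06 ± 0.0519 (limma adjusted p 0.685). Tpd52l1 and Tpd52l2, paralogues of Tpd52, differed by 0.01 ± 0.0546 and 0.02 ± 0.0379. Of the 25 sorting nexins tested beside Snx16, Snx10 had the lowest p, with 0.12 ± 0.0411 (limma adjusted p 0.308). In the peroxisome list Pex5l, a relative of the receptor that Pex2 recycles, differed by -0.47 ± 0.18 (limma adjusted p 0.368), a size close to that of Zfp704, the member with the smallest difference. Pex14, which docks that receptor, differed by 0.12 ± 0.0508 (limma adjusted p 0.42). In the Src family list Ezr, which links membrane to cytoskeleton, differed by 0.32 ± 0.0862 (limma adjusted p 0.182), and Fyn, a kinase held in check through Pag1 and Csk, by 0.08 ± 0.0414 (limma adjusted p 0.508).

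In BAT on HFD, 18 of 72 relatives had a positive genotype difference (46.7% of all genes), against 9 of 10 members. All 9 flanking genes tested were positive on HFD as well (median 0.37), so this direction was not particular to the members. The members were named with the BAT results known. Cdipt, the phosphatidylinositol synthase that uses the inositol Impa1 frees, differed by -0.36 ± 0.0857 averaged over diets (limma adjusted p 0.547). Snx3 differed by -0.27 ± 0.0969 (limma adjusted p 0.547) and Zbtb16 by 0.92 ± 0.458 (limma adjusted p 0.592). Of all relatives and comparisons in both tissues, Ptpn22 in BAT alone passed the threshold, higher on HFD in control mice by 0.82 ± 0.117 (limma adjusted p 0.0335).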

How the data were processed

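The measurements are log2 signals, 1 column per array, as the authors deposited them. The submitters' processing notes list Affymetrix Expression Console 1.1.1 and PLIER 2.0 without saying what each did. How arrays were normalized is not given in the sources used here, nor is the genome build. The scale ends at 19.93, which acts as a ceiling. Of 72688 features, 6732 were controls and 30604 others had 1 gene symbol in the platform annotation. A table of assembly GRCm38.p6 updated 827 symbols and gave the gene order.

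No further normalization was applied. A gene was tested when its brightest feature had a mean log2 signal of at least 5.51 in VMH or 4.13 in BAT (the median feature), which left 16211 and 17124 genes. Group means over the 12 arrays of a tissue were fitted with limma 3.58.1 (R 4.3.3), with no block. Tests were two-sided, with Benjamini-Hochberg adjustment over all genes tested and a threshold of 0.05. The script was tested on simulated data. Errors after ± are SE unless given as SD, and the number of arrays limits the precision.

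The members, relatives, marker lists and tests were chosen with earlier results of these data known. All members are named, together with neighbours in order, up to 3 of the nearest measured on each side, relatives past the threshold or the 2 of lowest p in a family, and the 5 genes most like the member mean. Alternatives were quantile normalization, a pseudocount of 16, no filter, other feature rules, another prior, only the groups compared, array weights, the muscle score, the replicate number as a block, and each array left out in turn. Promoter and protein sequences were not analysed here.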

Additional observations from a re-analysis of the deposited data

How the results depend on the processing

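The VMH genotype difference was positive for all 10 members under every alternative run. The median member difference in VMH on SD, 0.65, ran from 0.60 to 0.70 when single arrays were left out, and the HFD value, 0.69, was 0.74 after quantile normalization. In BAT 0 members passed for genotype on HFD and 2 with array weights (Tpd52 0.57, limma adjusted p 0.0454, and Snx16 1.13, limma adjusted p 0.0446). For diet in cKO mice it was 0 and 5 with array weights, and for diet in control mice 0 to 2 when single arrays were left out. The share of all genes that passed under these alternatives is not given here, so nothing is read from these counts. The median BAT difference on SD ran from 0.38 to 0.63 without single arrays. Among BAT genotype differences under the threshold, the sign turned for Pag1 on SD (0.09, and -0.01 with array weights), Pkia on SD (3.03, and -0.04 without control SD array 2) and Pkia on HFD (1.15, and -0.45 with the muscle score). The labels do not say what the replicate numbers mean. Same-numbered deviations correlated at -0.351 to 0.28 in VMH (median -0.01, against 0.008 for different numbers). In BAT they correlated at -0.772 to 0.39 (median 0.09, against -0.02 for different numbers). These values do not settle whether the numbers pair arrays. With the replicate number as a block, the VMH SD median stayed 0.65 and 0 members passed in BAT. Averaged over diets the limma adjusted p of Snx16 in BAT ranged from 0.131 to 0.854 and that of Zbtb10 from 0.157 to 0.854 over the alternatives.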

Other observations

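The 20 named genes around each of 3 other loci were read in the same way in VMH. Around Arntl, the gene labelled as deleted, the median genotype difference averaged over diets was 0.02, and 0 of 20 neighbours passed the limma threshold (4 at an unadjusted p under 0.05). Dkk3, the neighbour of Arntl with the largest difference, was at 0.47 ± 0.129 (limma adjusted p 0.187). Around Gfap, the gene named in the label of the deletion, the median was 0.04, with 0 of 20 passing (3 unadjusted), while Gfap itself was at 1.31 ± 0.317 (limma adjusted p 0.126). Around Fabp7, a brain fatty acid binding protein and a relative of Fabp5, the median was 0.002, with 0 of 20 passing (1 unadjusted), while Fabp7 itself was higher by 3.84 ± 0.233 (limma adjusted p 1.47e-05). The 13 genes tested from Pex2 to Snx16 had a median of 0.72. The 10 members among them were chosen on this contrast, so that value restates the choice and is a description.

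In BAT the neighbours of Arntl, Gfap and Fabp7 had median averaged differences of -0.003, -0.05 and -0.04, with 0 of 20 passing each time (2, 3 and 2 unadjusted). The 10 members, named with the BAT results known, had a median of 0.63 there. The 9 flanking genes tested had 0.23, and 8 of them were positive, where 45.9% of all genes were. Their median was 0.05 on SD and 0.37 on HFD. The largest averaged differences among them were those of Car3 (0.93, near the ceiling in most arrays) and Zfhx4 (0.89).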
